A study of Mus musculus with 4 samples.

Results

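Sterol and fatty acid synthesis was followed here through 32 genes of 32285 in the count table of esophageal immune cells: 7 genes of the early mevalonate steps, 11 of the steps between squalene and cholesterol, 5 regulators and transporters, and 9 genes that make, elongate or desaturate fatty acids. The genes were listed by name and all 32 were present in the table. Cells build cholesterol from acetyl-CoA through mevalonate and squalene, and build fatty acids from malonyl-CoA with fatty acid synthase, elongases and desaturases. The transcription factors SREBP2 (Srebf2) and SREBP1 (Srebf1) drive both programs, and when membrane sterol is low SCAP carries them out of the endoplasmic reticulum, while INSIG proteins hold SCAP back when sterol is abundant. In lymphocytes these pathways are known for supplying membrane during activation and division, and in macrophages for their balance with sterol uptake and efflux.

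The cells came from 5 Il20rb knock-out mice (KO; IL20RB-/- in the labels, with no strain, age or design of the allele given) and 5 wild-type mice (WT), and IL20RB is a receptor subunit shared by the cytokines IL-19, IL-20 and IL-24. All 10 mice, both genotypes alike, were taken through a model of eosinophilic esophagitis: the ear was treated with MC903 (calcipotriol) and ovalbumin every day for 14 days, ovalbumin was given in the drinking water from day 14 and by gavage on days 15 and 17, and tissue was taken on day 18. Unchallenged mice were not analysed here, so every value describes challenged tissue. Cells of each animal carried 1 hashtag antibody, were pooled, sorted as viable CD45+ cells and split over 2 wells for 3′ end libraries with unique molecular identifiers (UMIs), and the animal was the replicate.

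The table held 2633 KO and 3421 WT cells, with 1805883 to 5666994 UMIs per animal and a median of 5133 to 6035 UMIs per cell in the KO animals against 3569 to 5993 in the WT animals. Il20rb itself gave 1 or 2 UMIs in each KO animal and 0 to 5 in each WT animal, and a 3′ tag can lie outside a deleted stretch, so it checks nothing about the genotype labels. Lineages were set by UMIs of marker genes that are not among the 32 genes, which placed 4163 cells in 10 lineages. Another 1872 cells met no gate and 19 met 2 gates, together 31.2% of cells, and these were left out of the lineages. The gated group 2 innate lymphoid cells (ILC2) numbered 57 in KO and 201 in WT animals. Gata3, the factor that defines ILC2, was required and present in 100% of them, the IL-33 receptor gene Il1rl1 in 90.7% and Il5 in 24.8%. The T cell genes Cd3e, Cd3d and Trac were at 0 because the gate required it, while Trbc2 was present in 72.1% of ILC2 (82.6% of T cells), Trbc1 in 47.3% (47.3% of T cells) and Cd3g in 30.6% (86.0% of T cells), and their part in the results was not tested. Of these cells, 256 also lay in clusters named ILC2 and 2 in clusters of another name, and a gate with 1 more marker kept 225 of the 258. Monocytes numbered 647 in KO and 502 in WT animals, with Ccr2 required and present in 100% and Ly6c2 in 81.3%. Animals entered a lineage with 10 or more of its cells, which left 3 KO and 5 WT animals for ILC2 and for T cells, 4 and 4 for type 1 dendritic cells (cDC1), and 5 and 5 for type 2 dendritic cells (cDC2), monocytes and macrophages. Levels are given as CPM, the UMIs of a gene per 1000000 UMIs of that animal's cells of the lineage. Because only the 3′ end is counted and transcripts of different genes can be captured unequally, levels were compared between cells and not between genes. Fdft1, Tm7sf2, Srebf1 and Acaca each overlap another protein-coding gene (Ctsb, Vps51, Rai1, and Tada2a with Gm11437), and since the use of strand in counting is not given in the sources used here, their levels are uncertain.

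The promoter sequences of 3 of the genes are shown because the results turn on them. Cyp51 and Elovl5 had the highest ILC2 levels relative to monocytes among the genes that passed the filter on low counts. Hmgcs1 had the lowest genotype p in ILC2 and cDC2. It was also the one of the 25 genes with a promoter entry whose 250 bases before the start held the letters TCACNCCAC. Each is the 200 bases upstream of the annotated start, read 5′ to 3′ on the gene's strand from RefSeq, build GRCm38.p6. Capitals mark matches to 3 motifs searched on both strands, and the marked stretches do not overlap. One motif is GGGCGG, the GC box. Another is named by its letters, CCAAT. The last is TCACNCCAC, 1 spelling of the sterol response element to which SREBP proteins bind, marked in Hmgcs1 alone. Other spellings of the element were not searched, so an unmarked promoter may still hold one. The Cyp51 stretch is chr5:4104698-4104897 on the minus strand, that of Elovl5 chr9:77917165-77917364 on the plus strand, and that of Hmgcs1 chr13:119690151-119690350 on the plus strand.
Cyp51: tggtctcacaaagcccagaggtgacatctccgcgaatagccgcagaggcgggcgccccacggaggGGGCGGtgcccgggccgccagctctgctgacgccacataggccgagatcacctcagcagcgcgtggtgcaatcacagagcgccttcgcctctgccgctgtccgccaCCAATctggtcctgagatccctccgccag
Elovl5: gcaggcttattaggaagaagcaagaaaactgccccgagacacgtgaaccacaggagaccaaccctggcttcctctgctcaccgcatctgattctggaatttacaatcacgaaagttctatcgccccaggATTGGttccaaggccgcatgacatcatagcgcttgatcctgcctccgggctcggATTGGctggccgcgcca
Hmgcs1: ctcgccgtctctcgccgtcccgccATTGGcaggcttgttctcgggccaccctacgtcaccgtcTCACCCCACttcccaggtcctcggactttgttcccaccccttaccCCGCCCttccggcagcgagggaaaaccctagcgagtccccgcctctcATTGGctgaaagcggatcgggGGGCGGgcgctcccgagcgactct
Among 25 of the 32 genes with an entry in the RefSeq promoter table, 1 (4%) held TCACNCCAC in the 250 bases before the start, against 1.05% of all 32851 promoters. CCAAT was held by 19 of the 25 (76%), against 33.8% of all promoters, and GGGCGG by 20 (80%), against 32.7%. The 25 were counted by gene, with a match in any entry of the gene, and all promoters by single entry. The shares are therefore not in the same unit and their gap was not tested. A match is a description of letters and not a bound site, and a promoter without TCACNCCAC is not shown to lack a sterol response element.

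Among lineages with 3 or more animals, ILC2 had the highest median in the squalene to cholesterol steps and cDC2 and cDC1 the highest in the early mevalonate steps. Migratory DC reached 1138 CPM in the early steps in WT3, the 1 animal with enough of these cells. The summed level of the 11 genes between squalene and cholesterol had a median of 545 CPM over animals in ILC2 (410 to 725 CPM, n = 8), 326 CPM in cDC2, 213 CPM in T cells and 216 CPM in monocytes (101 to 413 CPM, n = 10). The 7 early mevalonate genes summed to a median of 440 CPM in cDC2 and 422 CPM in cDC1, 230 CPM in ILC2, 234 CPM in T cells, 182 CPM in macrophages and 201 CPM in monocytes. Neutrophils had the lowest medians in each of the 4 role groups, 62 CPM for the squalene to cholesterol genes and 16 CPM for the early mevalonate genes, over 5 animals. Much of the ILC2 sum was 1 gene: Cyp51 averaged 258 ± 32.9 CPM in ILC2 (SD, n = 8). The next lineage with 3 or more animals was cDC2 at 74.1 ± 19.1 CPM, and T cells, macrophages, cDC1 and monocytes followed within their spread of each other, monocytes at 40.8 ± 13.02 CPM (SD, n = 10).

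**Figure D1:**
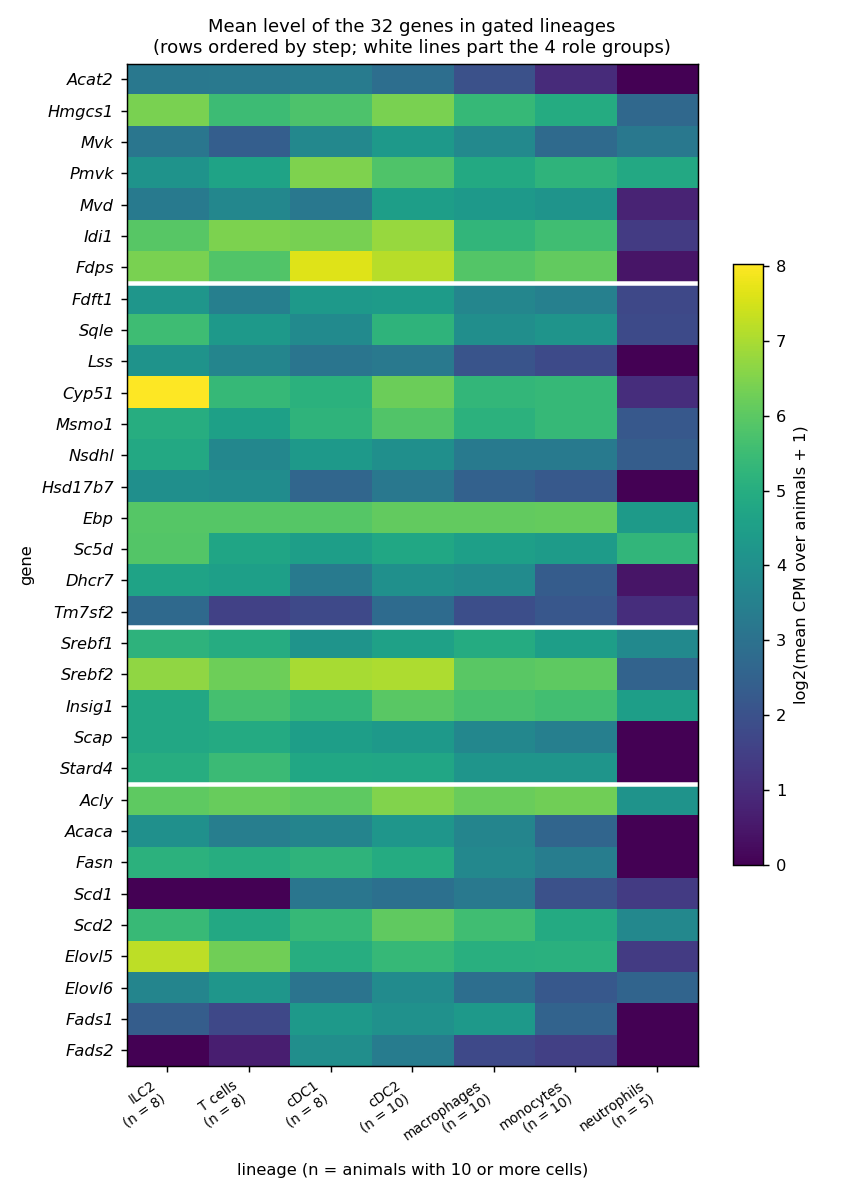
Mean level of each of the 32 genes in each gated lineage, as log2(mean CPM over animals + 1), with genes ordered by step of the pathway and n the number of animals with 10 or more cells. The Cyp51 square of ILC2 (258 CPM) and the Elovl5 square of ILC2 (149 CPM) are the brightest of their lines, and Scd1 is at 0 in ILC2 and T cells.

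ILC2 were set against monocytes because the list was proposed for that pair, and the genes were chosen with earlier results of these data known. ILC2 had more Cyp51, the demethylase that acts on lanosterol, more Elovl5, an elongase of polyunsaturated fatty acids, and more Srebf2, and none of the tested genes was called lower. In edgeR's quasi-likelihood test with the animal as a block and Benjamini-Hochberg adjustment over 2639 genes, 7 of the 32 passed the filter on low counts, of which 3 were higher and 0 lower in ILC2. Of all genes tested, 30.8% were called higher and 33.6% lower, and against that background 3 of 7 is no result about the genes as a group. The median log2 fold of the 7 was 0.29, against -0.01 over all genes tested. The other 4 genes were Idi1 (0.29), Fdps (0.04), Ebp (-0.19) and the citrate lyase gene Acly (-0.44, adjusted p = 0.0708 in edgeR), and the other 25 were too low for this test.

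Cyp51 stood at 199.5, 264 and 302.1 CPM in ILC2 of the 3 KO animals and at 292, 240, 267, 267 and 235 CPM in ILC2 of the 5 WT animals. In monocytes of the same animals it stood at 31.8, 19.4 and 31.8 CPM in KO and at 41.6, 45.3, 59.5, 41.9 and 44.6 CPM in WT. The 2 lineages did not overlap, and ILC2 were higher in 8 of 8 animals. The difference was 2.60 ± 0.17 on the log2 scale (SE; edgeR adjusted p = 4.12e-13). The gene lies at chr5:4080674-4104697 (GRCm38.p6), and no other protein-coding gene overlaps it.

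Elovl5 stood at 119.7, 214 and 121 CPM in KO ILC2 and at 118, 160, 168, 155 and 133 CPM in WT ILC2. Monocytes of these animals held 21.2, 64.5 and 16.3 CPM in KO and 29.6, 34.0, 57.1, 32.03 and 33.1 CPM in WT. Every ILC2 value lay above every monocyte value. The gene lies at chr9:77917365-77984519, with no other protein-coding gene over it. The log2 difference was 2.01 ± 0.19 (SE; edgeR adjusted p = 9.81e-10).

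Srebf2 stood at 139.7, 16.5 and 161 CPM in KO ILC2 and at 80.8, 50.0, 86.2, 126.5 and 164 CPM in WT ILC2. Its monocyte levels were 38.1, 71.0 and 51.8 CPM in KO and 53.6, 62.3, 57.1, 91.2 and 79.35 CPM in WT. These groups overlapped, with ILC2 lower than monocytes in KO2 and WT2 and higher in 6 of 8 animals. The log2 difference was 0.65 ± 0.23 (SE; edgeR adjusted p = 0.0164). Without WT5 it was 0.56 with an adjusted p of 0.069 in edgeR, and among the 5 WT animals alone it was 0.44 with an adjusted p of 0.111, so the call for Srebf2 did not hold without WT5. Cyp51 and Elovl5 kept theirs without any 1 animal and in each genotype alone.

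ILC2 were shallower than monocytes, with medians of 3354 and 5648 UMIs per cell. When each cell was thinned to 1000 UMIs, which kept every cell, Cyp51 had a UMI in 20.9% of ILC2 (50% before thinning), in 4.09% of monocytes (15.4%), in 3.38% of T cells (10.6%) and in 0.23% of neutrophils (0.92%). Among dendritic cells, the thinned share for Cyp51 was 11.1% of the 63 migratory DC (58.7% unthinned, above the 50% of ILC2) and 7.11% of cDC2 (35%). For Elovl5 the thinned shares were 11.2% of ILC2 (38.4% unthinned), 7.25% of T cells (23.2%), 1.83% of monocytes (13.7%) and 0.23% of neutrophils (0.23%). Cells with UMIs of 2 or more cycling markers made up 5.04% of ILC2 and 0.609% of monocytes. Leaving these cells out kept the calls of Cyp51 and Elovl5.

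**Figure D2:**
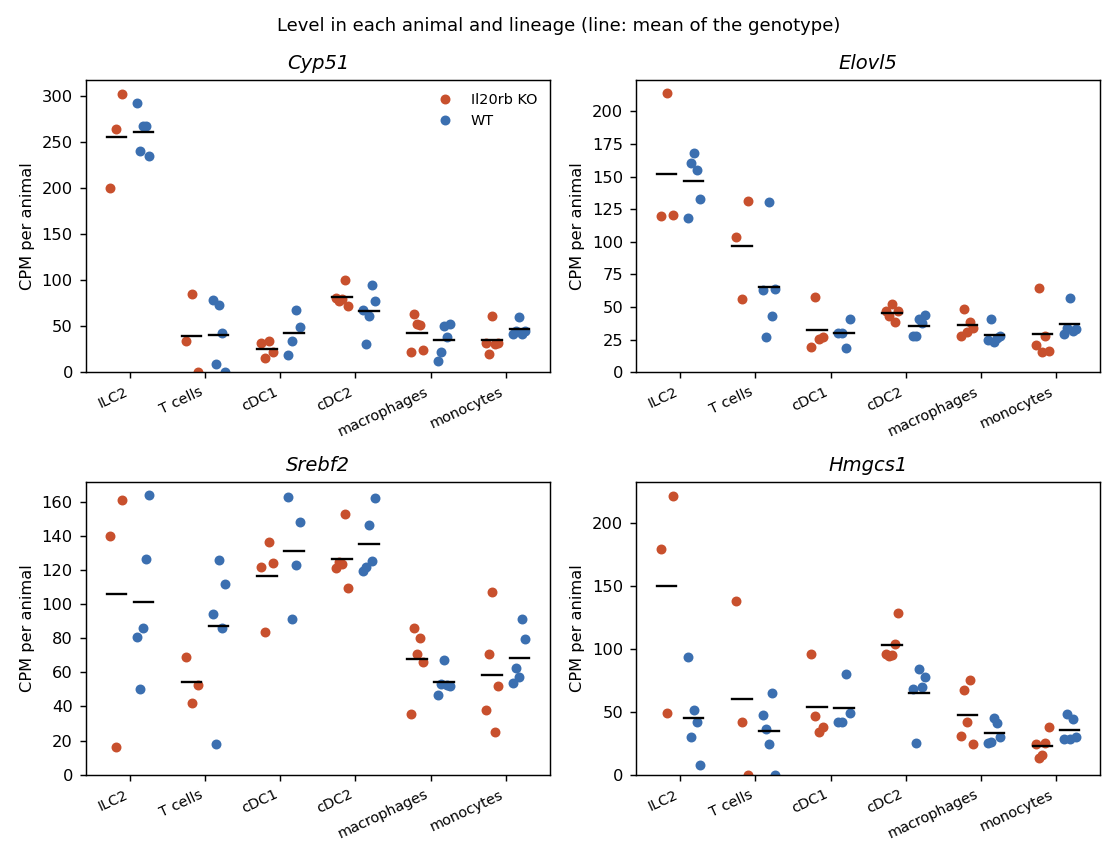
Level of Cyp51, Elovl5, Srebf2 and Hmgcs1 in CPM for each animal, with Il20rb KO animals left of WT animals within each lineage, points for animals and a line for the mean of the genotype. The Cyp51 points of ILC2, 199.5 to 302.1 CPM, lie above all monocyte points of the same animals, 19.4 to 59.5 CPM, in both genotypes.

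To reach the low genes, the same test was run on genes with 10 or more UMIs in all, an alternative added after the data were seen. Of 10766 such genes, 27.4% were called higher and 17.9% lower in ILC2, and the median log2 fold was 0.28. It held 30 of the 32 genes, with 14 higher and 2 lower, and a median log2 fold of 0.93. A gene low in monocytes can pass this filter through its ILC2 UMIs alone, so the count describes these genes and is no support by itself. Of the steps between squalene and cholesterol, 7 of 11 were higher and 0 lower. Lss, the lanosterol synthase, differed by 3.01 ± 0.72 (log2 ± SE; edgeR adjusted p = 0.000117), with medians of 17.8 CPM in ILC2 and 0.635 CPM in monocytes. Its ILC2 levels rest on 2 UMIs in KO and 15 in WT animals, and ILC2 were higher in 6 and lower in 1 of 8 animals. Sc5d, a sterol desaturase, differed by 1.81 ± 0.35 (edgeR adjusted p = 9.98e-07), and its ILC2 levels of 30 to 82.4 CPM lay above all monocyte levels of 9.92 to 22.2 CPM. Dhcr7, which makes cholesterol from its last precursor, differed by 2.08 ± 0.55 and was higher in 7 of 8 animals. Nsdhl (1.46), Hsd17b7 (1.80) and Sqle were also called higher, and Fdft1, Msmo1, Ebp and Tm7sf2 were not called. The call of Nsdhl was lost in 9 of 19 alternatives and that of Hsd17b7 in 3 of 18. Without KO5 Nsdhl differed by 0.93 (edgeR adjusted p = 0.138), and without WT1 by 1.22 (edgeR adjusted p = 0.0748).

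Sqle encodes squalene epoxidase, an oxygen-dependent control point of the pathway. It stood at 119.7, 49.4 and 80.55 CPM in KO ILC2 and at 24.85, 10.0, 34.5, 14.1 and 31.3 CPM in WT ILC2, from 1 to 8 UMIs per animal. Monocytes of these animals held 13.8, 6.45 and 9.62 CPM in KO and 12.0, 19.8, 9.52, 22.2 and 28.1 CPM in WT. The lineages overlapped among the WT animals but not among the KO animals. Sqle differed by 1.26 ± 0.39 (log2 ± SE; edgeR adjusted p = 0.00381), and by 0.94 with an adjusted p of 0.0589 without KO1.

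Of the early mevalonate steps, 2 of 7 were higher and 1 lower, beside 27.4% higher and 17.9% lower of all genes. That is near the background and no result about these steps as a group. Hmgcs1, the synthase that makes HMG-CoA, stood at 179.6, 49.4 and 222 CPM in KO ILC2 and at 93.2, 30.0, 51.7, 42.2 and 7.82 CPM in WT ILC2. Monocytes held 24.4, 12.9 and 37.7 CPM in KO and 28.7, 48.1, 28.6, 44.35 and 29.75 CPM in WT. ILC2 were higher in 3 of 3 KO animals but in 2 of 5 WT animals, and the lineages overlapped. The log2 difference was 1.12 ± 0.28 (SE; edgeR adjusted p = 0.000228) over all 8 animals and 0.32 with an adjusted p of 0.468 among the WT animals alone. Acat2, an acetyl-CoA acetyltransferase, was called higher by 3.05 ± 0.94, with medians of 8.37 CPM in ILC2 and 0.265 CPM in monocytes. Its ILC2 levels rest on 1 UMI in KO and 7 in WT animals, and ILC2 were higher in 5 and lower in 2 of 8 animals. Pmvk, a mevalonate pathway kinase, was called lower by -1.07 ± 0.39 (edgeR adjusted p = 0.015) and was lower in 8 of 8 animals, although without WT1 the adjusted p was 0.052. Mvk, Mvd, Idi1 and Fdps were not called.

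Among the regulators, 3 of 5 were higher and 1 lower, beside 27.4% higher and 17.9% lower of all genes. Insig1, which retains SCAP in the endoplasmic reticulum and is itself a target of SREBP2, stood at 19.95, 16.5 and 60.4 CPM in KO ILC2 and at 49.7, 10.0, 21.6, 14.1 and 23.5 CPM in WT ILC2. Monocytes of these animals held 41.3, 25.8 and 48.1 CPM in KO and 63.8, 42.5, 52.35, 39.4 and 64.5 CPM in WT. Insig1 was lower in ILC2 of 7 of 8 animals, KO5 being the exception, and the log2 difference was -0.97 ± 0.33 (SE; edgeR adjusted p = 0.00869). Scap was higher by 1.66 (edgeR adjusted p = 0.00111), and Stard4, a sterol carrier, by 0.95 (edgeR adjusted p = 0.0397), a call that was lost without KO1, KO5, WT4 or WT5. Srebf1 stood at 19.95, 33.0 and 40.3 CPM in KO ILC2 and at 43.5, 20, 21.6, 28.1 and 78.2 CPM in WT ILC2. Its monocyte levels were 16.95, 45.2 and 11.8 CPM in KO and 18.5, 19.8, 19.0, 32.03 and 14.9 CPM in WT. These overlapped, and Srebf1 missed the threshold with a log2 difference of 0.75 and an edgeR adjusted p of 0.0811.

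Among the 9 fatty acid genes 7 were tested and 2 were higher, Fasn and Elovl5. With 27.4% of all genes called higher, this count is near the background. Fasn, the fatty acid synthase, stood at 59.9, 33.0 and 20.1 CPM in KO ILC2 and at 43.5, 20, 25.9, 42.2 and 31.3 CPM in WT ILC2. Monocytes of these animals held 3.71, 12.9 and 2.22 CPM in KO and 1.85, 14.2, 14.3, 12.3 and 1.65 CPM in WT. No ILC2 value reached down to a monocyte value, and the log2 difference was 2.29 ± 0.47 (SE; edgeR adjusted p = 5.94e-06). The ILC2 values rest on few counts, 6 UMIs in the KO animals and 25 in the WT animals. The stearoyl-CoA desaturase gene Scd2 stood at 59.9, 49.4 and 121 CPM in KO ILC2 and at 49.7, 10.0, 21.6, 21.1 and 0 CPM in WT ILC2. Monocytes of these animals held 13.8 to 45.2 CPM (median 24.3), within the range of ILC2, and the log2 difference of 0.30 missed the threshold. Its relative Scd1 had 0 UMIs in every ILC2 sum, and over the 987925 UMIs of all ILC2 a count of 0 allows up to 3.04 CPM. Acly, Acaca, Elovl6 and Fads1 were not called, and Scd1 and Fads2 had under 10 UMIs.

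**Figure D3:**
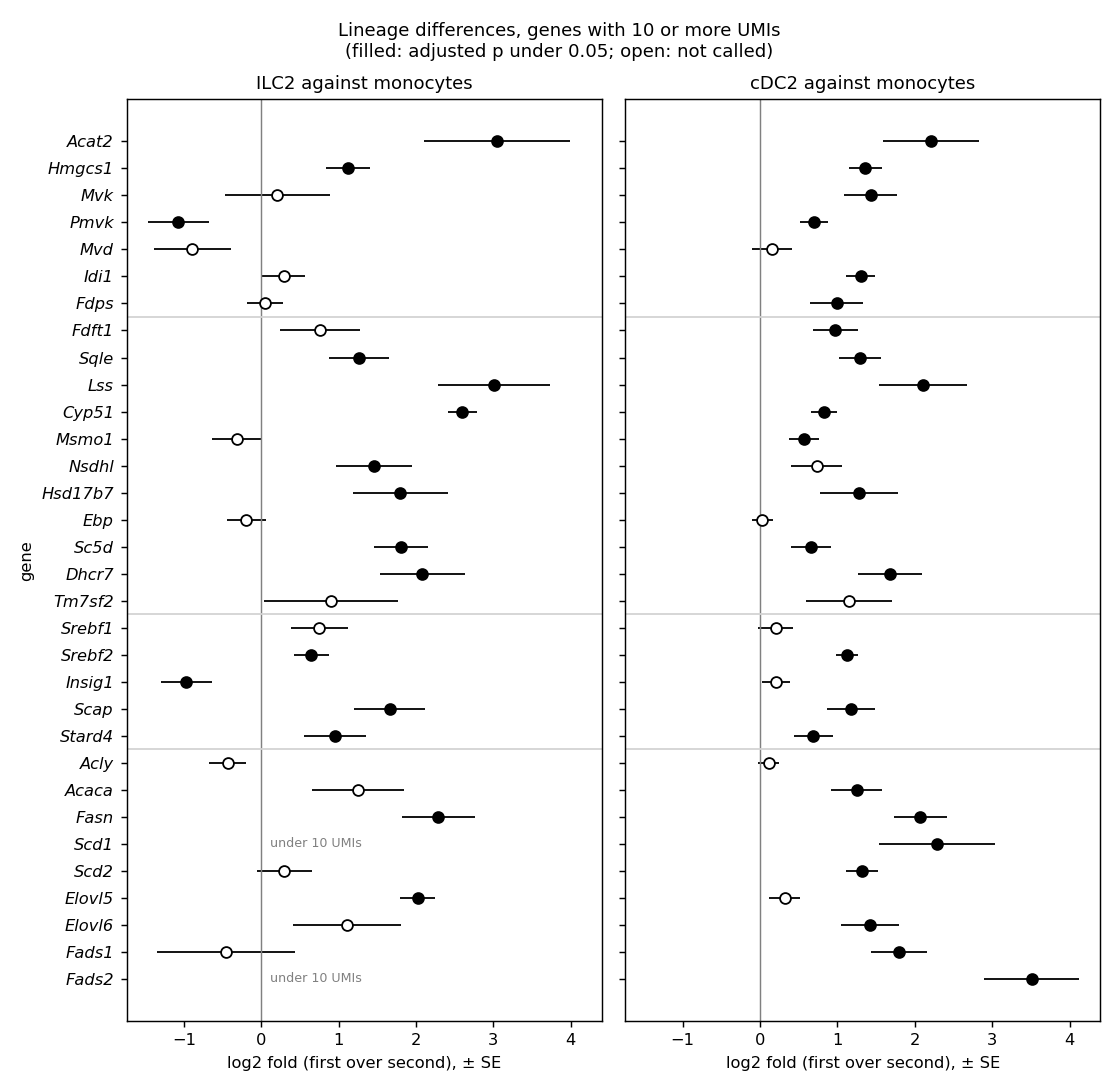
Log2 fold of each gene with 10 or more UMIs for ILC2 and cDC2, each over monocytes of the same animals, as points with ± SE; filled points had an edgeR adjusted p under 0.05. For ILC2 14 points are filled to the right of 0 and 2 to the left, and for cDC2 24 and 0.

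The remaining genes of the pathway, 37 in all, were set beside the 32. In ILC2 against monocytes 12 passed the filter of the first test, of which 3 were higher and 6 lower, beside 30.8% higher and 33.6% lower of all genes tested. Those higher included Tecr (log2 difference 1.64), the reductase that ends a fatty acid elongation cycle, and Soat1 (0.65), which esterifies cholesterol for storage. Those lower included the fatty acid elongation enzyme Hsd17b12 (-0.94), the lysosomal sterol carrier Npc2 (-3.03), the sterol exporter Abcg1 (-1.47), the cholesteryl ester hydrolase Nceh1 (-0.68) and the fatty acid carrier Fabp5 (-3.85). With the filter at 10 UMIs, 8 of the 14 genes of uptake, trafficking, efflux and storage were lower and 3 higher, beside 17.9% lower and 27.4% higher of all genes. Those lower included the efflux transporter Abca1 (-2.76), its nuclear receptor regulator Nr1h3 (-2.92) and the lysosomal lipase Lipa (-2.10).

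T cells served as the second comparison for ILC2, since both are lymphocytes and similarly deep (medians of 3354 UMIs per cell in ILC2 and 3117 in T cells). Cyp51 was again higher in ILC2, and Elovl5 did not pass the filter of the first test and was called with the filter at 10 UMIs. T cells held 34.5, 84.5 and 0 CPM of Cyp51 in KO and 78.7, 9.04, 72.7, 43.1 and 0 CPM in WT, all below the ILC2 levels given above. Cyp51 was the 1 gene of the 32 that passed the filter, and it differed by 2.47 ± 0.31 (log2 ± SE; edgeR adjusted p = 1.34e-06), where 12.4% of 1089 genes were called higher and 10.3% lower. With 10 or more UMIs, 28 of the 32 were tested among 9101 genes, of which 4.43% were called higher and 5.22% lower. Of these 28, 2 were higher and 0 lower. Elovl5 stood at 103.5, 56.3 and 131 CPM in KO T cells and at 62.9, 27.1, 131, 43.1 and 64.0 CPM in WT T cells, and was higher in ILC2 of 7 of 8 animals by 0.96 ± 0.28 (log2 ± SE; edgeR adjusted p = 0.00769), a call that was lost without WT2 and without cycling cells. The other 26 genes were not called, Sqle, Lss, Sc5d, Dhcr7 and Fasn among them, and the median of all 28 was 0.07. The role groups differed: of 10 tested genes between squalene and cholesterol, Cyp51 included, 9 were above 0, with a median of 0.58 (all genes -0.07). Medians were -0.22 in the early mevalonate genes, -0.06 in the regulators and -0.07 in the fatty acid genes. These group differences were not tested. Sc5d was nonetheless higher in ILC2 of 8 of 8 animals, with medians of 56.6 CPM in ILC2 and 23.9 CPM in T cells. Among the other pathway genes, Soat1 (2.33) and Lpcat3 (1.48), a phospholipid acyltransferase, were higher, and Npc2 (-0.78) and Fabp5 (-1.41) were lower.

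cDC2 had higher levels than monocytes of genes from every stretch of the pathway. Of the 32 genes 18 passed the filter, and 12 were higher and 0 lower, where 23.5% of 5238 genes were called higher and 22.9% lower. The median log2 fold of the 18 was 0.70, against 0.03 over all genes tested. A gene can pass this filter through its cDC2 sums alone, so the counts and the median are a description and no support by themselves. Fasn had medians of 28.5 CPM in cDC2 and 8.01 CPM in monocytes, and Sc5d 24.5 and 14.8 CPM. The early steps were among the genes called higher: Hmgcs1 was higher by 1.36 ± 0.22 (edgeR adjusted p = 5.03e-05), the isomerase Idi1 by 1.31 ± 0.20 (edgeR adjusted p = 2.69e-05) and Fdps, which makes farnesyl diphosphate, by 0.99 (edgeR adjusted p = 0.0315). Hmgcs1 ran from 25.5 to 128 CPM in cDC2 (median 89.4, 10 animals) and from 12.9 to 48.1 CPM in monocytes (median 28.6), and was higher in 9 of 10 animals. Srebf2 ran from 110 to 162 CPM in cDC2 (median 124) and from 25.1 to 107 CPM in monocytes (median 59.7), without overlap, and differed by 1.13 ± 0.15 (edgeR adjusted p = 6.86e-07).

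Among the later sterol genes, Sqle was higher in cDC2 by 1.29 ± 0.28 (edgeR adjusted p = 0.000723) and Cyp51 by 0.83 ± 0.18 (edgeR adjusted p = 0.000438), and Msmo1 (0.57) and Sc5d (0.67) were also called higher. Cyp51 ran from 30.8 to 100 CPM in cDC2 (median 77.1) and from 19.4 to 61.2 CPM in monocytes (median 41.7), and among WT animals alone its difference was 0.42 with an adjusted p of 0.161. Of the fatty acid genes, Fasn was higher by 2.08 ± 0.37 (edgeR adjusted p = 6.47e-05) and Scd2 by 1.32 ± 0.23 (edgeR adjusted p = 5.48e-05), while Elovl5 (0.32) and Acly were not called. With the filter at 10 UMIs, 24 of the 32 were called higher and 0 lower, where 21.1% of 11490 genes were called higher and 15.5% lower. The 24 comprised 6 of 7 early genes, 8 of 11 late sterol genes, 3 of 5 regulators and 7 of 9 fatty acid genes, among them the desaturase genes Fads1 (1.80), Fads2 and Scd1. Fads2 and Scd1 had 54 and 34 UMIs in cDC2 and 4 and 5 in monocytes, so such genes pass this filter through cDC2 alone, and the count is a description. Among WT animals alone 13 of the 32 were called. cDC2 were deeper than monocytes (medians of 7440 and 5648 UMIs per cell) and held more cycling cells (16.1% and 0.609%), and without cycling cells 9 genes were called higher in place of 12. Among the other pathway genes, Tecr (0.88) was higher, and Npc1, Npc2, Abcg1, Soat1, Nceh1 and Fabp5 were lower.

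Macrophages differed from monocytes in few of the genes. Of 14 genes that passed the filter, 1 was higher and 0 lower, where 17.0% of 5272 genes were called higher and 19.8% lower, and the median log2 fold was -0.09. The 1 gene was Scd2, at 24.4 to 76.5 CPM in macrophages (median 46.4) and 13.8 to 45.9 CPM in monocytes (median 27.2), with a difference of 0.73 ± 0.19 (edgeR adjusted p = 0.00363). Among the WT animals alone Scd2 differed by 0.27 with an adjusted p of 0.467. With the filter at 10 UMIs, 5 of 32 were higher and 0 lower, where 17.4% of 11698 genes were called higher and 10.7% lower, so the share of called genes was near the background. These were Scd2, Scd1, Fads1 (1.91; edgeR adjusted p = 1.38e-05), Dhcr7 (1.38) and Mvk (0.92). Scd1 had 52 UMIs in macrophages and 5 in monocytes and so passed the filter through macrophages alone. Fads1 ran from 4.45 to 33.1 CPM in macrophages (median 21.2) and from 0 to 19.4 CPM in monocytes (median 2.63), and was higher in 10 of 10 animals. Beside them Abca1 (1.38), Lipa (1.16) and Tecr (0.72) were higher and Npc2 (-0.41) and Soat1 (-0.57) lower.

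Scd1, the desaturase that makes oleate, was concentrated in B cells. Of its 323 UMIs in all cells, 135 (41.8%) lay in the 105 gated B cells, or 311 CPM with a 95% exact Poisson interval of 261 to 368 CPM that covers counting error only. The largest share came from WT3, with 99 UMIs in 48 of its 70 B cells. The other animals had under 10 B cells each, and there 10 UMIs were counted in the 9 B cells of KO1, 9 in the 8 of WT1, 6 in the 7 of WT2, and 4 in the 4 each of WT4 and WT5, so the level was not that of WT3 alone. Pooled over animals, B cells gave 321 CPM in KO (171 to 549) and 310 CPM in WT (257 to 370). Scd1 reached 8.71 CPM in cDC1, 7.87 CPM in macrophages, 6.08 CPM in cDC2, 1.10 CPM in neutrophils and 0.748 CPM in monocytes. T cells, like ILC2, had none, and their 755498 UMIs allow up to 3.97 CPM. Thinned to 1000 UMIs per cell, 34.3% of B cells (62.9% unthinned) and 0.174% of monocytes (0.261%) held an Scd1 UMI. Since 1 animal had 10 or more B cells, no test between lineages was made, and Scd2 gave only 11 UMIs in B cells.

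**Figure D4:**
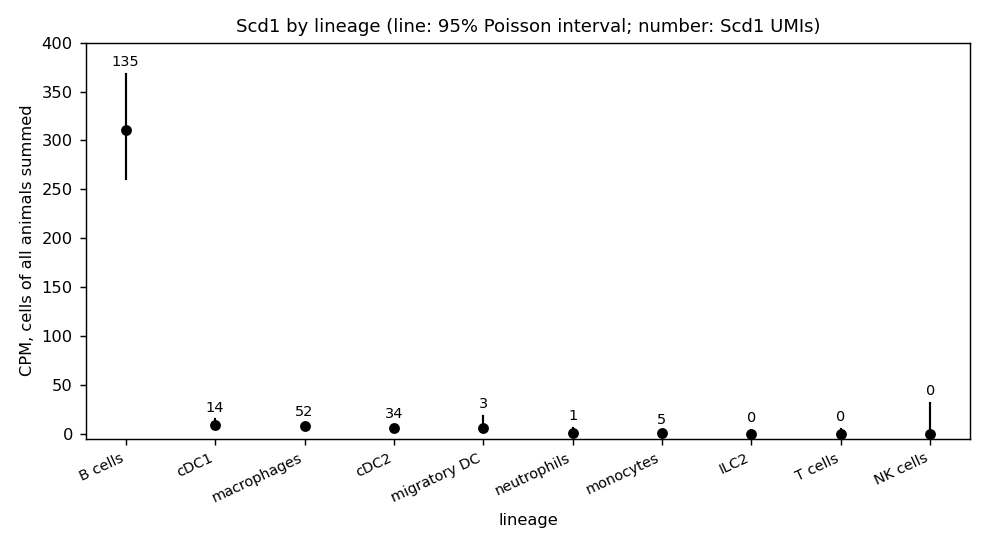
Scd1 level in CPM with the cells of all animals summed for each gated lineage, with the 95% Poisson interval as a line and the Scd1 UMI count as a number. B cells stand at 311 CPM, and no other lineage exceeds 8.71 CPM.

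The knock-out was compared with WT in all CD45+ cells and in each lineage with 3 or more animals of each genotype. In the edgeR tests 0 of the 32 genes were called in any of these comparisons, where 0.0393% of genes were called in either direction in all CD45+ cells, 0.0543% in ILC2, 0% in T cells, 0.0473% in cDC1, 0.107% in cDC2, 0.0454% in monocytes and 0.0343% in macrophages. At an unadjusted p under 0.05, 2 of 32 genes passed in all CD45+ cells (689 of all 10175 genes), 1 of 4 in ILC2 (109 of 1840), 0 of 6 in cDC1 (145 of 2115), 5 of 21 in cDC2 (275 of 5591), 1 of 12 in monocytes (484 of 4404) and 2 of 17 in macrophages (314 of 5829), and none of the 32 passed the filter in T cells. DESeq2 also called 0 of the 32 in each comparison. In sums over all CD45+ cells fewer cells of a type and less RNA per cell cannot be told apart, and the lineages differ between animals in number. Leaving aside the tests, the sign was uneven: 18 of 21 genes were above 0 in cDC2 (median log2 fold 0.38, all genes 0.01), 14 of 17 in macrophages (0.25, all genes -0.01) and 26 of 32 in all CD45+ cells (0.22, all genes 0.00), while 11 of 12 were below 0 in monocytes (-0.43, all genes -0.03). The genes of a pathway vary together and are not independent replicates, so these counts carry no test.

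Hmgcs1 had the lowest p in all CD45+ cells, ILC2 and cDC2. In cDC2 it stood at 95.8, 94.55, 95.2, 103.6 and 128 CPM in the 5 KO animals, against 67.8, 25.5, 84.3, 69.75 and 77.3 CPM in the 5 WT animals. The log2 difference was 0.71 ± 0.24 (SE; edgeR adjusted p = 0.861). In ILC2 it stood at 179.6, 49.4 and 222 CPM in KO, from 3 to 11 UMIs per animal, against 93.2, 30.0, 51.7, 42.2 and 7.82 CPM in WT, and KO2 lay within the WT range. That difference was 1.58 ± 0.58 (SE; edgeR adjusted p = 0.649). In all CD45+ cells it stood at 43.6, 79.4, 59.8, 97.2 and 50.0 CPM in KO, against 42.2, 34.0, 54.8, 51.5 and 43.3 CPM in WT, and the log2 difference was 0.58 ± 0.20 (SE; edgeR adjusted p = 0.564). Cycling cells made up 12.5% of KO and 19.7% of WT cDC2, and 3.51% of KO and 5.47% of WT ILC2; without these cells Hmgcs1 differed by 0.69 in cDC2 and was again not called.

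The gap between the lineages in the genotype effect was tested as an interaction. For Hmgcs1 the effect in ILC2 exceeded that in monocytes by 1.96 ± 0.57 (log2 ± SE; edgeR adjusted p = 0.384 over 4053 genes), and 0 of 10 tested genes were called, against 0.0987% of all genes. Of these 10 genes, 9 had a positive difference, with a median of 0.39 against -0.11 over all genes. The 3 genes called between ILC2 and monocytes had genotype differences smaller than their SE, Cyp51 differing by -0.04 ± 0.23, Elovl5 by 0.07 ± 0.31 and Srebf2 by -0.02 ± 0.51 between KO and WT ILC2. Sqle was too low for that test, and its levels in ILC2, given above, rest on 13 UMIs in KO and 19 UMIs in WT animals. With the filter at 10 UMIs Sqle differed by 1.68 ± 0.60 (edgeR adjusted p = 0.576) and Scd2 by 1.71 ± 0.63 (edgeR adjusted p = 0.618).

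In the remaining lineages the gene with the lowest p was a different one each time. In monocytes Cyp51 stood at 31.8, 19.4, 61.2, 30.7 and 31.8 CPM in KO, against 41.6, 45.3, 59.5, 41.9 and 44.6 CPM in WT. KO3, with 4 UMIs in 10 cells, lay above every WT animal and the other 4 KO animals below, and the log2 difference was -0.48 ± 0.22 (SE; edgeR adjusted p = 0.429). In macrophages Scd2 stood at 46.7, 76.5, 54.1, 60.6 and 46.1 CPM in KO, against 24.9, 34.1, 51.5, 42.8 and 24.4 CPM in WT, overlapping through WT3, with a difference of 0.61 ± 0.23 (SE; edgeR adjusted p = 0.871). In cDC1 Pmvk stood at 108.7, 94.0, 93.7 and 108 CPM in KO, against 68.2, 75.9, 61.5 and 90.4 CPM in WT, with a difference of 0.52 ± 0.25 (SE; edgeR adjusted p = 0.737). Scd1 stood at 4.24, 9.63, 12.2, 12.6 and 2.51 CPM in all CD45+ cells of KO animals, against 3.94, 4.46, 28.55, 5.86 and 5.20 CPM in WT, where the high value is WT3, the animal with 70 of the 105 B cells.

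**Figure D5:**
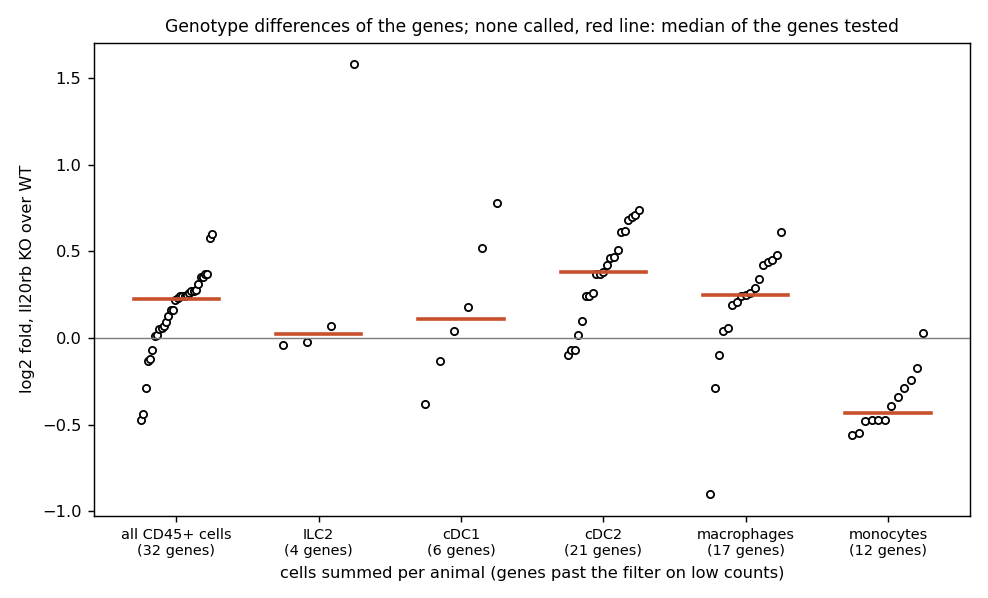
Log2 fold of Il20rb KO over WT for each gene past the filter on low counts, by the cells summed, as points, with the median of the genes tested as a red line. The medians lie at 0.22 in all CD45+ cells, 0.38 in cDC2, 0.25 in macrophages and -0.43 in monocytes, and no gene was called in any of them.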

How the data were processed

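Cells of the 10 animals were pooled and read as 2 wells, each with an RNA library and a hashtag library. The authors deposited the UMI counts of the RNA libraries for every gene and cell without scaling them. Per the file headers, a cell's name holds its well, genotype and hashtag. The submitters' processing notes name Cell Ranger 6.0.1, R 4.0.5 and mm10. How hashtags were called, and the annotation release, are not given. The deposited counts of the hashtag libraries were not used beyond checking hashtag names. The table had been filtered before deposit: its cells held 1000 to 52182 UMIs, 501 or more genes and no more than 9.99% of UMIs from mitochondria. The wells hold 2885 and 3169 cells and share 2 cell barcodes. Each cell name carries 1 hashtag, and no doublet caller was run.

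The 32 genes, the 37 other pathway genes and the markers were chosen with earlier results of these data known. Some of the other pathway genes are counted but not reported by name here. Cells were gated on marker UMIs, and UMIs were summed per animal and lineage with 10 or more cells. Sums were tested with edgeR 4.0.16 in R 4.3.3 (filterByExpr, TMM, robust quasi-likelihood test, Benjamini-Hochberg adjustment over all genes tested, adjusted p under 0.05), with the animal as a block between lineages, since both lineages come from the same animal. Genotypes were compared without a block, since hashtags do not pair animals. The SE beside an edgeR log2 difference was derived from the test, as the absolute difference over the square root of its F statistic. Alternatives were DESeq2 1.42.0, library sizes without TMM, no filter, a filter of 10 UMIs and a gate with 1 more marker (both added after seeing the data), clusters (Leiden, 37 clusters, scanpy 1.11.5), leaving out cycling cells or each animal, each well, each genotype, 20 cells and no block. All 32 genes are accounted for by role, and values per animal are given for those called in ILC2 against monocytes, those with the lowest genotype p, and Srebf1, Srebf2, Scd1, Scd2, Fasn, Hmgcs1, Sqle and Insig1. The tests were run on simulated data with known answers first. Separate animals are the replicates. The 95% intervals are exact and cover counting error only, and a count of 0 allows 3 counts.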

Additional observations from a re-analysis of the deposited data

Results flagged for a closer look

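In 10 of 97 groups of 4 or 5 animals, 1 animal lay far from the others, where chance flags about 1 group in 20. WT3 was high in WT monocytes for Cyp51 (59.5 CPM) and Elovl5 (57.1 CPM), from 74 cells. KO2 was high in KO monocytes for Elovl5 (64.5 CPM), from 27 cells. WT4 was high in WT monocytes for Srebf1 (32 CPM). In macrophages, WT2 was high for Elovl5 (40.9 CPM) and WT5 low for Pmvk (17.4 CPM). In cDC2, KO5 was high among KO animals for Hmgcs1 (128 CPM), while WT2 was low among WT animals for both Hmgcs1 (25.5 CPM) and Sqle (13.4 CPM). In all CD45+ cells WT3 was high for Scd1 (28.6 CPM), and 70 of the 105 gated B cells, which held 41.8% of all Scd1 UMIs, were from that animal.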

How the results depend on the processing

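The direction of single genes was followed for the sterol and fatty acid synthesis genes called in ILC2 against monocytes, and none reversed. Cyp51 in ILC2 against T cells, Cyp51 and Scd2 in cDC2 against monocytes, and Scd2 in macrophages against monocytes did not reverse either. The direction of the other calls between lineages, including all calls of the other pathway genes, was not followed under the alternatives. Medians without a call changed sign, but the medians of all genes moved with them. In macrophages against monocytes -0.09 became 0.11 with no filter and 0.17 with 10 UMIs, where all genes went from 0.00 to 0.17 and 0.18. For KO against WT in ILC2, 0.03 became -0.09 with no filter, where all genes went from -0.02 to -0.39. In cDC1 0.11 became -0.06 with no filter and -0.01 with 10 UMIs, where all genes went from 0.00 to -0.07 and -0.01. Cyp51 and Elovl5 in ILC2 against monocytes were called under every alternative in which they passed the filter, at log2 differences of 2.13 to 3.02 and 1.57 to 2.39. With the filter at 10 UMIs, Lss kept its call under all 17 alternatives. They reuse much the same few UMIs, 2 in KO and 15 in WT ILC2, against 5 and 4 in monocytes of all 10 animals. Lss passes this filter through ILC2, so the kept call is a description and no support. In ILC2 against monocytes (3 higher, 0 lower), 8 genes were higher and 5 lower with no filter, which also moved the median of all genes to -0.20, 14 and 2 with 10 UMIs, and 1 was higher in well 1 alone, where 1 was tested; 2 were lower with 20 cells and with WT animals alone. With 10 UMIs (14 higher, 2 lower), DESeq2, 20 cells and WT animals alone gave 8 higher, wells 1 and 2 gave 5 and 4, and KO animals alone gave 5; each well and KO animals alone gave 0 lower, and the stricter gate 1. In ILC2 against T cells (1 higher), no filter, 20 cells, WT animals alone, 10 UMIs and the stricter gate gave 2; with 10 UMIs (2 higher), DESeq2, no cycling cells, well 2 and KO animals alone gave 1, and 20 cells gave 1 lower. In cDC2 against monocytes (12 higher), no filter gave 23, 10 UMIs 24, well 1 and WT animals alone 5, and well 2 and the stricter gate 7; with 10 UMIs, WT animals alone gave 13. In macrophages against monocytes (1 higher, 0 lower), no TMM, clusters, the stricter gate and the fit without the replicate block gave 2 higher, no filter 4, 10 UMIs 5, and each well and WT animals alone 0; no filter and clusters gave 1 lower. With 10 UMIs (5 higher, 0 lower), each well gave 3, the fit without the block 8, and each genotype alone 2 higher, and clusters and WT animals alone 1 lower. For the other lineage comparisons the counts without the block lay within 1.5 times. Srebf2 in ILC2 against monocytes was not called by DESeq2.

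Leaving out 1 animal gave 2 to 3 higher and 0 to 2 lower in ILC2 against monocytes (2 lower without KO2), and 12 to 15 higher and 1 to 2 lower with 10 UMIs. It gave 1 to 2 higher in ILC2 against T cells at both filters, 8 to 12 in cDC2 against monocytes and 18 to 24 with 10 UMIs. In macrophages against monocytes it gave 1 to 2 higher and 0 to 2 lower, and 4 to 6 and 0 to 2 with 10 UMIs, the 2 lower being without KO4. Between genotypes 0 genes were called without any 1 animal; of all alternatives only no filter called any, Hmgcs1 in cDC2 (0.73, adjusted p = 0.0129). No paired analysis was possible because hashtag numbers do not pair KO and WT animals. ILC2 sums held 49657 to 231935 UMIs per animal, and 3 KO animals entered, which limits what could be detected.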

Other observations

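The highest level of the isopentenyl diphosphate isomerase gene Idi1 lay in migratory dendritic cells, gated on Ccr7, Fscn1, Ccl22 and related markers. Summed over the 63 cells, Idi1 gave 184 UMIs, or 378 CPM (95% exact Poisson interval 325 to 437 CPM, counting error only). It reached 357 CPM in the 23 KO cells (275 to 457) and 390 CPM in the 40 WT cells (323 to 465). The median in cDC2 was 103 CPM over 10 animals, with a highest value of 171 CPM. In the same pooled cells Cyp51 reached 140 CPM, Fdps 131 CPM, Hmgcs1 117 CPM and Pmvk 111 CPM. Since WT3 alone had 10 or more of these cells, the values have no replicate check, and none of the 63 cells was cycling by marker UMIs.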
